A study of Mus musculus with 10 samples.

Results

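Chromatin accessibility was examined at the class III POU genes Pou3f1, Pou3f2 and Pou3f3 in ATAC-seq peak lists of adult neural stem cell (NSC) cultures. ATAC-seq marks open chromatin by the insertion of sequencing adapters by a transposase, and a peak is a stretch where insertions exceed the local background. A peak was assigned to a gene when its summit, the base of strongest signal, lay in the gene body or within 100 kb of it. By this rule 420 of the 759157 listed peaks belonged to the 3 genes, which are 3 of 21951 protein-coding genes in the annotation. Overlapping peaks of the 10 lists merged into 137454 regions, of which 63 lay at these genes, 26 at Pou3f1, 16 at Pou3f2 and 21 at Pou3f3. Each region is named after its gene and the distance of its strongest summit from the start site in kb, counted along the gene's strand, so that negative values are upstream.

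All cultures were derived from the subependymal zone (SEZ) of mice aged 10 weeks, and 50000 cells entered each library. Proliferating cultures (PRO) were neurospheres given 20 ng/ml EGF and 10 ng/ml FGF, and the labels state 3 days in vitro (DIV). Cultures at the onset of differentiation (DIFF, 2+1 DIV) were secondary neurosphere cells plated on Matrigel with FGF for 2 days and then deprived of mitogens for 24 h in medium with 2% serum. Cells of both conditions were wild-type (WT) or lacked Cdkn1b, the gene of the cyclin-dependent kinase inhibitor p27 (p27KO), which gave 3 PRO and 3 DIFF libraries of WT and 2 of each condition of p27KO. Mitogens, serum and substrate changed together between PRO and DIFF and cannot be told apart. How many animals each culture came from was not stated in the labels.

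Lists held between 57534 and 91801 peaks, and among DIFF libraries WT DIFF 3 was the longest with 88738. One label field of the p27KO libraries calls the cells WT, whereas their genotype field and titles name p27KO. A peak on the Cdkn1b gene body was listed in all 6 WT libraries and in 0 of 4 p27KO libraries, as the genotype field has it. Peaks on chromosome Y numbered 54 to 71 in WT and 26 to 58 in p27KO libraries, so any comparison of genotypes may carry a difference in the source mice, whose part was not tested. Promoters of all 7 neural stem and progenitor markers examined, Sox2, Nes, Olig2, Egfr, Fabp7, Slc1a3 and Vim, had a peak in all 10 libraries. Of the markers of other cells, peaks in all 10 libraries were found at 2 of 4 neuronal, 2 of 4 oligodendrocyte, 2 of 3 ependymal, 3 of 5 microglia and blood and 0 of 4 endothelial promoters, and Ptprc, Cx3cr1 and Tek had none in any library. Among these promoters those of the microglial receptor gene P2ry12 and the endothelial adhesion gene Pecam1 were lower in DIFF, by the rank test described below, with changes of -0.79 and -1.35 in WT (adjusted p = 0.0106 and 0.00198) and -0.82 and -1.67 in p27KO (adjusted p = 0.0343 and 0.00311), and the part of such cells in the results was not tested. Pecam1 was the only endothelial promoter that could be tested, and the other microglia and blood promoters tested did not pass, Csf1r at 0.66 in WT and 1.13 in p27KO (adjusted p = 0.178 and 0.0841) and Aif1 at 0.14 and -0.18 (0.709 and 0.734).

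Class III POU factors bind DNA through a POU-specific domain and a POU homeodomain, and the octamer and its variants are their best known sites. They are known from the developing nervous system, where they often share enhancers with SOX proteins, an enhancer of the intermediate filament gene Nes being a textbook case. Pou3f2 (Brn2) and Pou3f3 (Brn1) act in neural progenitors and in the production and migration of cortical neurons, while Pou3f1 (Oct6, SCIP) is best known for the onset of myelination in Schwann cells. Long noncoding RNAs flank these genes. Gm30731, listed by RefSeq as Pnky, lies upstream of Pou3f2, Pantr1 and Pantr2 lie at Pou3f3, and the antisense transcript Gm2164 covers much of the stretch upstream of Pou3f1.

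Sequences are shown for the regions called below other than Pou3f1 +52.3 kb, and for the stretches upstream of Pou3f2 and Pou3f3, in GRCm38, 5′ to 3′. Those of the windows around summits are given on the plus strand, and capitals mark matches, on either strand, to ATGCNAAT (an octamer-like POU site), AACAANG (a SOX site) or TGANTCA (an AP-1 site). The first pair are 300 bases around the summits of the 2 regions that differed between PRO and DIFF in both genotypes. Pou3f1 -85.6 kb (chr4:124571026-124571325) lies in an exon of the long noncoding RNA 4933407E24Rik and an intron of Gm2164, and Pou3f1 -63.5 kb (chr4:124593152-124593451) lies in an intron of Gm2164.
Pou3f1 -85.6 kb: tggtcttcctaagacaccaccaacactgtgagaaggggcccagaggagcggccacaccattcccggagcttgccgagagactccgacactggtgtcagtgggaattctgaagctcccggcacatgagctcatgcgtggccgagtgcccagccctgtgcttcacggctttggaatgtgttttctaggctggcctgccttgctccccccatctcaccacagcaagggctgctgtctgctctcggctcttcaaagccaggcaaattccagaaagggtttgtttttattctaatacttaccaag
Pou3f1 -63.5 kb: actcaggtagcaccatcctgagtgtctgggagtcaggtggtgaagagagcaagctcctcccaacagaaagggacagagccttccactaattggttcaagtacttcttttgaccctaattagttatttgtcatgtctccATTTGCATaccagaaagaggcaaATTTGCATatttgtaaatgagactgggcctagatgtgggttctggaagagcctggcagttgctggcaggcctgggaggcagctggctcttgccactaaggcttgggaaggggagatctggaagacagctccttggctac
The first window holds none of the 3 motifs. The second holds 2 octamer-like matches, both on the minus strand, which begin at bases 139 and 162 counted from the first base printed, with the summit between them. The next pair are the regions of Pou3f2 and Pou3f3 that differed in WT. Pou3f2 +95.3 kb (chr4:22392929-22393228) lies in an intron of Fbxl4, and Pou3f3 +8.2 kb (chr1:42703820-42704119) lies in an intron of AC122898.1, a transcript that overlaps Pou3f3 on its own strand. Neither holds one of the 3 motifs. The window of Pou3f1 +52.3 kb, the called region not printed, holds an AP-1 match that begins at base 171.
Pou3f2 +95.3 kb: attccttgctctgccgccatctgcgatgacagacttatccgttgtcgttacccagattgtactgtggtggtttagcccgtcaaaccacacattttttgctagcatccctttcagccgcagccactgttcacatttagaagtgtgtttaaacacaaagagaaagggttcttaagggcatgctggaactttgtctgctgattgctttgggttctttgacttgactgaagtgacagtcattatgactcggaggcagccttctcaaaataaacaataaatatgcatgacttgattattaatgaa
Pou3f3 +8.2 kb: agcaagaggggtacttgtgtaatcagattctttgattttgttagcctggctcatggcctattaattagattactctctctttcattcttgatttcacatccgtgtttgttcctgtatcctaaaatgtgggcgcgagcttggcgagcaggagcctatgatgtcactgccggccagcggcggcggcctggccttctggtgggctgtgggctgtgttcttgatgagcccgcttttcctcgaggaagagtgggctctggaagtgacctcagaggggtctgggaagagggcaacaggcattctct
The last pair are the 250 bases before the RefSeq start sites of Pou3f2 (chr4:22488367-22488616, minus strand) and Pou3f3 (chr1:42695518-42695767, plus strand), printed along each gene's strand, because both held a peak summit and were open in every library. They also hold none of the 3 motifs.
Pou3f2 upstream: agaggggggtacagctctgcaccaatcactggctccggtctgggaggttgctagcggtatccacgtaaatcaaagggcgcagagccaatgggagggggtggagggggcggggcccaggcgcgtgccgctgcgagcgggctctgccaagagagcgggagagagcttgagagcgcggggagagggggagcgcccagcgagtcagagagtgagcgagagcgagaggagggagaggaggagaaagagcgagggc
Pou3f3 upstream: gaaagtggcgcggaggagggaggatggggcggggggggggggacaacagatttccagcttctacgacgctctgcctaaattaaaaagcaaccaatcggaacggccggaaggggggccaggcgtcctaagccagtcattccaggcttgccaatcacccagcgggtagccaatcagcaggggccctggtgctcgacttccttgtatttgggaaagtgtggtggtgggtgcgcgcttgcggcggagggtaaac

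How widely the regions were shared among libraries is described by gene and was not tested. A peak was listed in all 10 libraries at 25 of the 63 regions, 10 at Pou3f1, 9 at Pou3f2 and 6 at Pou3f3. Over the whole series this held at 37862 of 137454 regions. Another 16 regions had a peak in 1 library only, and 47 had one in at least 2, beside 99231 of the 137454 regions. None of these 47 regions had a peak in every PRO library and in no DIFF library or the reverse, a pattern found at 3.57% of all regions in at least 2 libraries. Pou3f2 had the most uniform locus, with 9 of 16 regions in every library, and its regions formed a cluster from -10.2 to +11.2 kb flanked by pairs at -77.8 and -76.3 kb and at +95.3 and +98.2 kb. At Pou3f1 regions were spread over the whole window, several of them at the promoters of other genes, Utp11 at +36.8 kb and Sf3a3 at +57.9 kb.

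**Figure D1:**
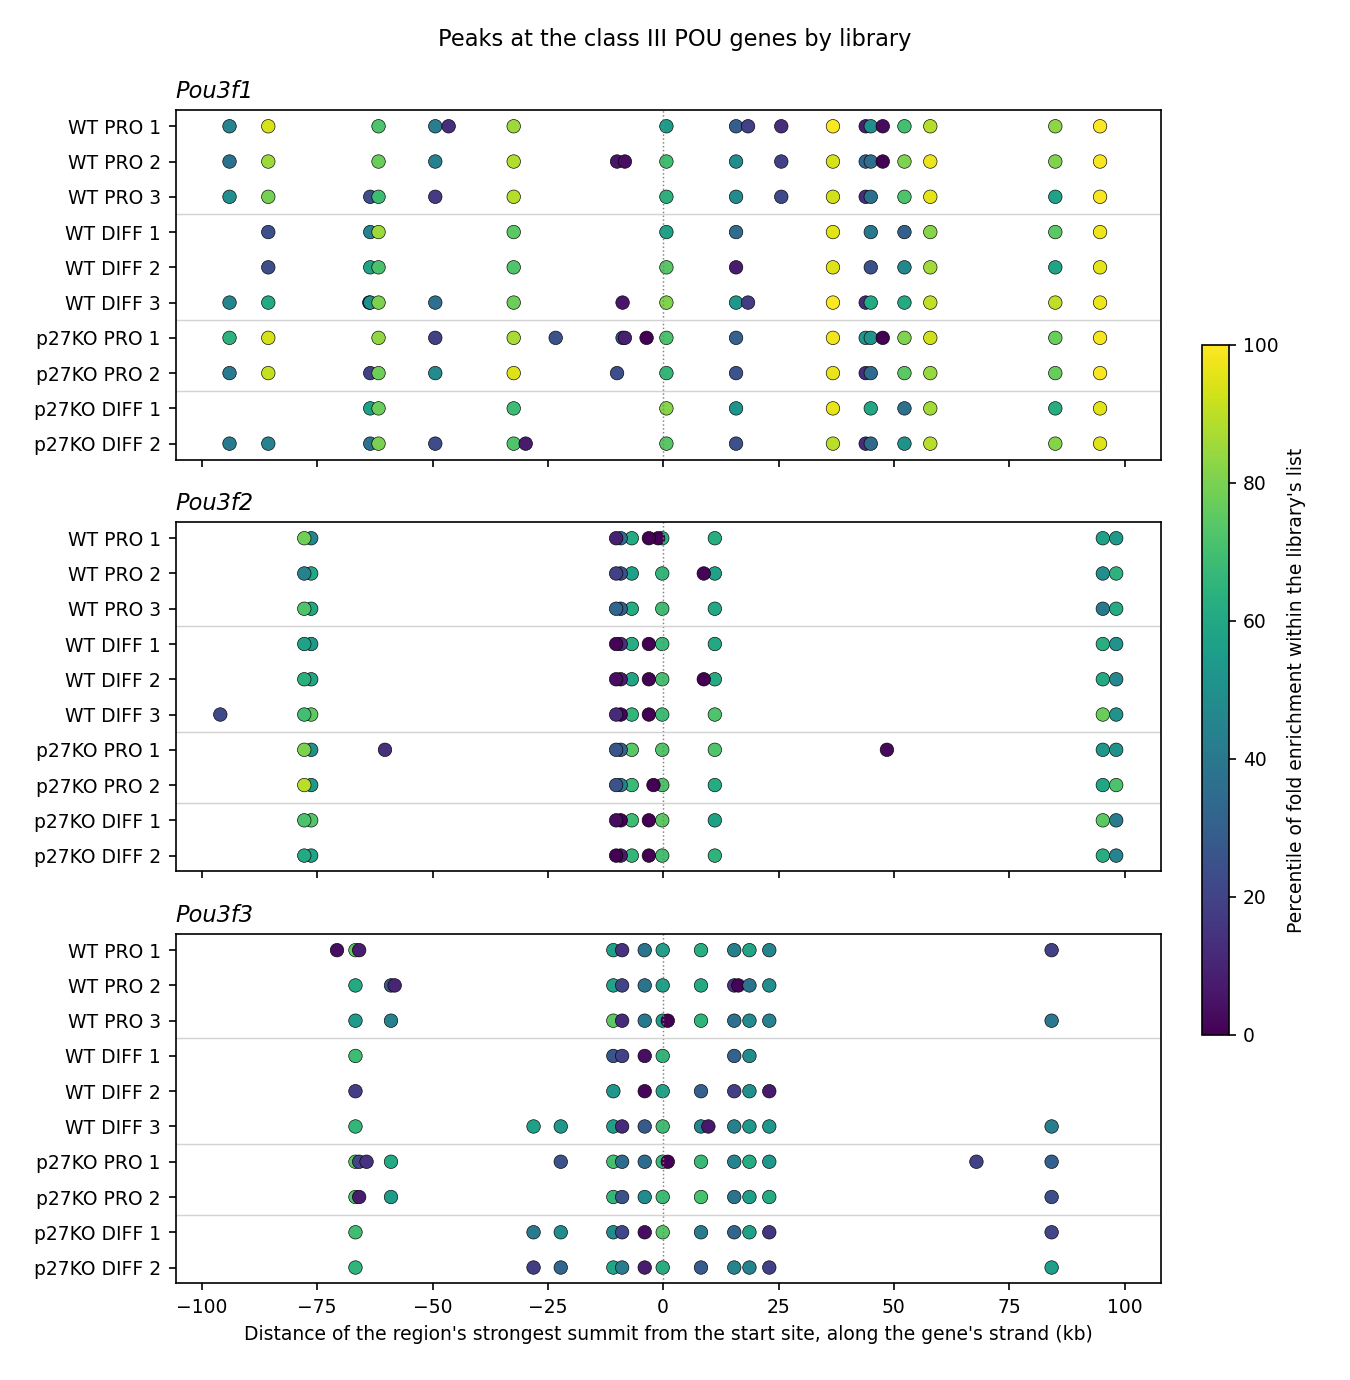
Peaks at Pou3f1, Pou3f2 and Pou3f3 in each of the 10 libraries (rows) against the distance of the region's strongest summit from the start site along the gene's strand (kb). Each point is a region with a peak in that library, and its colour gives the percentile of its fold enrichment within the library's list. The 25 regions in all 10 libraries form full columns, and Pou3f1 -85.6 kb turns from high percentiles in PRO to lower percentiles or no peak in DIFF.

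The promoters of all 3 genes were open in every library, and none of them passed the test between PRO and DIFF. The measure is the fold enrichment, the signal at the summit relative to the background around it in the same library, and its percentile is the share of the library's peaks with an equal or lower fold. Because the background is taken locally, a summit within a broad open stretch receives a low fold. The promoter region of Pou3f1 (Pou3f1 +0.7 kb, chr4:124656583-124658553, summit in the UTR) had folds of 6.35, 8.43 and 7.03 in WT PRO, 5.93, 7.77 and 9.84 in WT DIFF, 8.29 and 7.44 in p27KO PRO and 10.1 and 9.49 in p27KO DIFF. Values of PRO and DIFF overlapped in WT, and in p27KO both DIFF values were above both PRO values.

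At the Pou3f2 promoter (Pou3f2 -0.2 kb, chr4:22487949-22488941) folds were 7.35, 7.86 and 7.78 in WT PRO, 7.02, 7.27 and 7.37 in WT DIFF, 8.54 and 8.46 in p27KO PRO and 8.55 and 8.78 in p27KO DIFF. All p27KO values lay above all WT values, which held at 2.59% of all regions with a peak in every library, beside 0.0423% for the reverse. By percentile the genotypes overlapped, with p27KO DIFF 2 at 70.0 and WT DIFF 2 at 70.7. At the Pou3f3 promoter (Pou3f3 -0.1 kb, chr1:42693957-42696093), the widest region of the 3 loci with 2137 bp and 29 peaks over the 10 lists, folds were 6.43, 6.60 and 5.998 in WT PRO, 6.80, 5.79 and 7.42 in WT DIFF, 7.46 and 7.83 in p27KO PRO and 8.30 and 7.43 in p27KO DIFF. Here too p27KO values lay above WT values, by a margin of 7.425 against 7.415 at the closest, and the percentiles overlapped.

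Ranked by group mean percentile, the Pou3f1 promoter ran from WT PRO (62.8 ± 7.49, SD, n = 3) through p27KO PRO (69.0 ± 3.71, n = 2) and WT DIFF (70.8 ± 12.2, n = 3) to p27KO DIFF (77.9 ± 5.78, n = 2). For Pou3f2 the order was WT PRO (66.2 ± 2.91), WT DIFF (68.9 ± 1.68), p27KO DIFF (72.5 ± 3.44) and p27KO PRO (72.6 ± 0.460). For Pou3f3 it was WT PRO (56.3 ± 0.998), WT DIFF (64.4 ± 5.76), and p27KO PRO (67.91 ± 0.771) and p27KO DIFF (67.94 ± 8.02). Neighbours in these orders differed by no more than the larger of their SDs, apart from WT DIFF and p27KO DIFF at Pou3f2, which lay 72.5 against 68.9, and WT PRO and WT DIFF at Pou3f3.

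**Figure D2:**
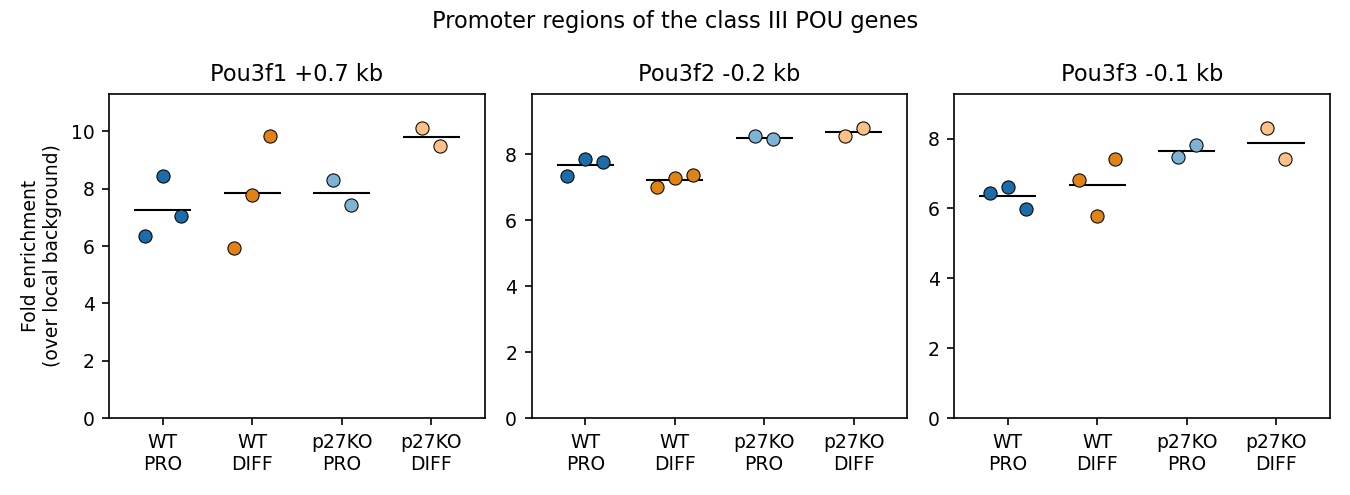
Fold enrichment over the local background at the promoter regions of Pou3f1, Pou3f2 and Pou3f3, by group, with 3 libraries in each WT group and 2 in each p27KO group. Points are libraries and lines are group means. At Pou3f2 the 4 p27KO values, 8.46 to 8.78, sit above the 6 WT values, 7.02 to 7.86. Such a separation was seen at 2.59% of all regions with a peak in every library.

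The rank test compared conditions at the 35 of the 63 regions that had a peak in at least 5 libraries, 15 at Pou3f1, 10 at Pou3f2 and 10 at Pou3f3. The highest fold in each region was ranked within each library among all regions that met this filter, and not within the full peak list as for the percentile. The rank was turned into a normal score, a value on the scale of a standard normal distribution, and regions without a peak shared the lowest score. Changes are differences of mean normal scores, tested with limma over all 70627 such regions with Benjamini-Hochberg adjustment. A region that had to have peaks in several libraries to be tested may have passed this filter through the condition in which it was high. The promoter regions changed from PRO to DIFF by 0.39 ± 0.20 (SE) in WT and 0.48 ± 0.25 in p27KO for Pou3f1 (adjusted p = 0.218 and 0.259), by 0.20 ± 0.18 and 0.19 ± 0.22 for Pou3f2 (0.497 and 0.653) and by 0.36 ± 0.17 and 0.21 ± 0.21 for Pou3f3 (0.174 and 0.587). All 6 differences were above 0 and none passed the test. At Pou3f2 in p27KO the mean percentile was 72.6 in PRO and 72.5 in DIFF, and in WT the mean fold was 7.66 in PRO and 7.22 in DIFF. Apart from WT DIFF 3, every DIFF list was shorter than every PRO list. Because regions without a peak share the lowest score, list length enters these changes, and its part was not tested. Positive changes were not particular to these genes. In WT the median promoter change was 0.361 over the 7 neural stem and progenitor markers. It was 0.0658 over the 3 tested neuronal, 0.085 over the 2 oligodendrocyte, -0.145 over the 2 ependymal and 0.144 over the 3 microglia and blood markers. In p27KO these medians were 0.239, 0.328, 0.0528, 0.238 and -0.184 in the same order. The 1 endothelial promoter tested changed by -1.35 in WT and -1.67 in p27KO.

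In WT, 3 of the 35 regions were lower and 2 were higher in DIFF than in PRO, where 10.1% and 9.15% of all regions were called lower and higher. In p27KO, 1 region was lower and 1 was higher, against 6.48% and 5.83% of all regions. The counts at these genes were thus not above the share of all regions. The median change of the 35 regions was 0.08 in WT and 0.05 in p27KO, beside 0.03 and 0.04 over all regions. At an unadjusted p under 0.05 there were 7 regions in WT and 8 in p27KO, beside 32.1% and 25.7% of all regions. With any one library left out, between 1 and 3 of the regions were called in each genotype.

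The region with the largest loss was Pou3f1 -85.6 kb (chr4:124570784-124571475), shown above. Its folds were 13.8, 11.6 and 9.47 in WT PRO and 3.80, 3.70 and 6.14 in WT DIFF, and they were 14.7 and 13.4 in p27KO PRO against no peak and 5.40 in p27KO DIFF. The 5 PRO libraries lay at the 78.9 to 93.8 percentile of their lists, above every DIFF library, of which the highest was at the 60.7 percentile. The normal score fell by 1.28 ± 0.28 (SE) in WT (adjusted p = 0.00875) and by 2.05 ± 0.34 in p27KO (adjusted p = 0.00323). The call was kept in both genotypes under all 8 other settings and with each of the 10 libraries left out, with adjusted p between 0.00148 and 0.0396. Without one p27KO library a p27KO group holds 1 library, which is then assumed to vary like the other groups, here and at the regions that follow. The difference between the losses in p27KO and WT did not pass the test (interaction -0.77 ± 0.44, adjusted p = 1.00, unadjusted p = 0.111).

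Pou3f1 -63.5 kb (chr4:124593094-124593496), the region with the pair of octamer-like matches, changed the other way. In PRO a peak was listed in 1 of 3 WT libraries (fold 3.85) and in 1 of 2 p27KO libraries (fold 3.57). In DIFF it was listed in every library, with folds of 4.86, 5.78 and 5.13 in WT and 5.93 and 5.02 in p27KO, all above the PRO values. The peak was present in WT DIFF 2, the shortest list, and absent from p27KO PRO 1, the longest. Without a peak, WT PRO 1, WT PRO 2 and p27KO PRO 1 scored -1.684, -1.683 and -1.908. These scores are lower than the shared score of the shorter DIFF lists, so list length enters the change, and its part was not tested. Too few PRO libraries had a peak for the filter, so the region was tested only because of its DIFF peaks. Its normal score rose by 1.42 ± 0.33 in WT (adjusted p = 0.0112) and by 1.40 ± 0.40 in p27KO (adjusted p = 0.0447). In WT the call was lost without WT PRO 1 (adjusted p = 0.0587) or WT PRO 2 (0.0592). In p27KO it was lost without any one library other than WT PRO 3 or WT DIFF 3, with adjusted p up to 0.323 when p27KO PRO 1 was left out. Of 8 other settings, 8 kept the WT call and 5 the p27KO call (adjusted p up to 0.0896).

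The third called region of Pou3f1 was Pou3f1 +52.3 kb (chr4:124708530-124709381), between genes. Folds were 8.33, 10.5 and 8.2 in WT PRO, 4.10, 4.93 and 6.15 in WT DIFF, 10.3 and 8.92 in p27KO PRO and 4.34 and 6.07 in p27KO DIFF. All PRO values exceeded all DIFF values. The normal score fell by 0.58 ± 0.19 in WT (adjusted p = 0.0497), while the change in p27KO was -0.71 ± 0.23 (adjusted p = 0.0663). The WT call was lost with any one of the 10 libraries left out (adjusted p from 0.0596 to 0.176) and kept under 5 of 9 other settings (up to 0.0892).

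Other regions of Pou3f1 were near the top of their lists without passing the test. The region in a coding exon of Inpp5b, an inositol polyphosphate phosphatase gene (Pou3f1 +94.7 kb), held folds of 16.8 to 17.6 in WT PRO, 13.3 to 16.1 in WT DIFF, 18.17 and 18.21 in p27KO PRO and 14.8 and 16.4 in p27KO DIFF. All PRO values again lay above all DIFF values, and the changes were -0.45 ± 0.16 (adjusted p = 0.0763) and -0.45 ± 0.20 (adjusted p = 0.175). At the promoter of Utp11, a ribosome biogenesis gene (Pou3f1 +36.8 kb), percentiles were between 89.7 and 99.4 in all libraries, and at the promoter of Sf3a3, a splicing factor gene (Pou3f1 +57.9 kb), between 81.8 and 97.2. Over the 15 tested regions of Pou3f1, changes ran from -1.28 to 1.42 in WT and from -2.05 to 1.40 in p27KO, with 8 below 0 in each genotype.

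**Figure D3:**
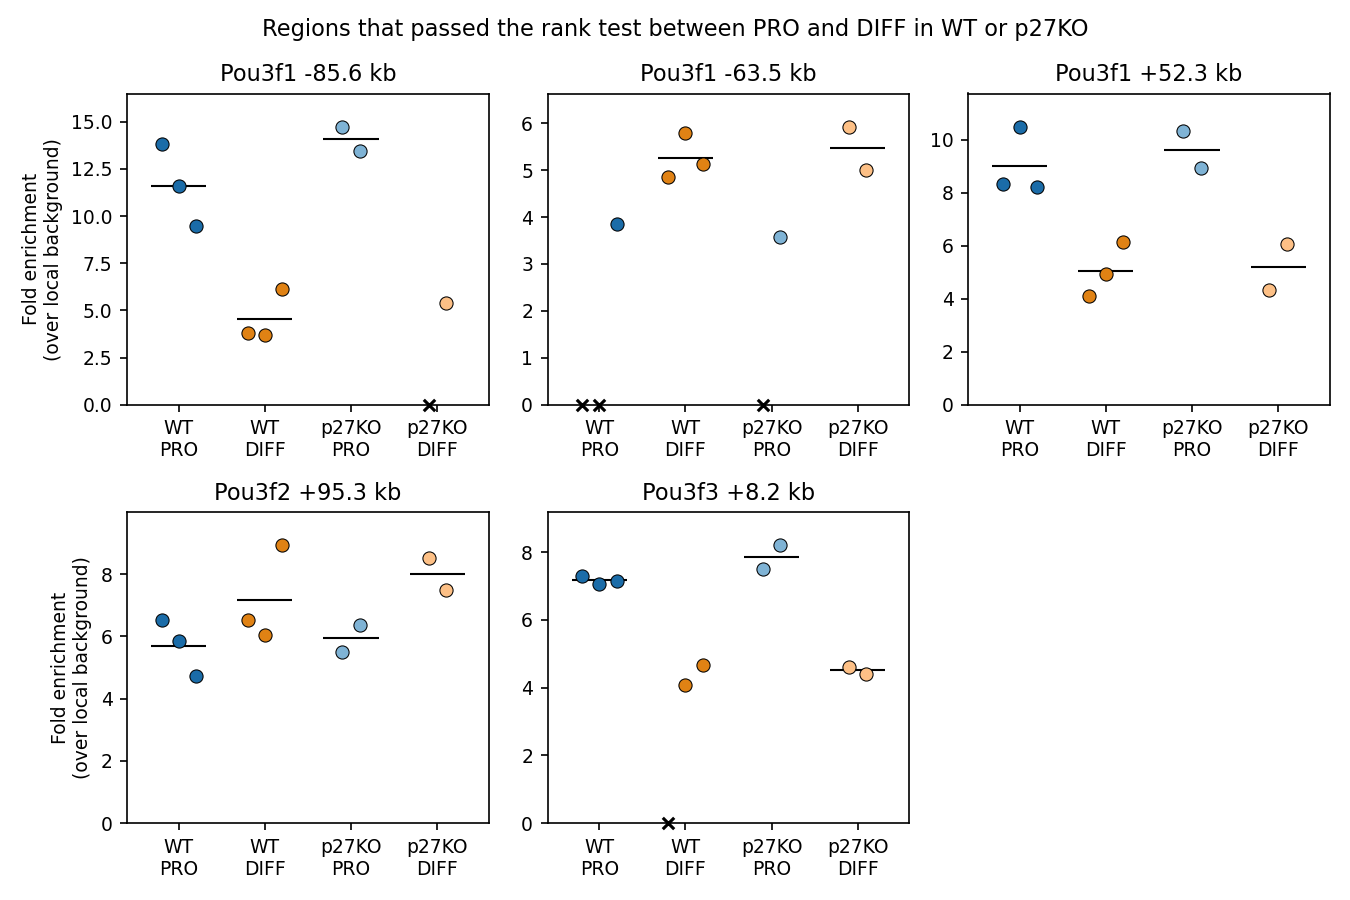
Fold enrichment over the local background at the 5 regions that passed the rank test between PRO and DIFF in WT or p27KO, by group. Points are libraries, crosses on the zero line are libraries with no listed peak, and lines are means of groups in which every library had a peak. At Pou3f1 -85.6 kb the 5 PRO values, 9.47 to 14.7, sit above all DIFF values, the highest of which is 6.14.

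At Pou3f2 a single region differed. Pou3f2 +95.3 kb, in an intron of the F-box gene Fbxl4 (chr4:22392660-22393694), had folds of 6.54, 5.84 and 4.72 in WT PRO, 6.52, 6.05 and 8.92 in WT DIFF, 5.51 and 6.37 in p27KO PRO and 8.53 and 7.496 in p27KO DIFF. The folds overlapped between conditions, whereas the percentiles did not, with 40.5 to 59.2 in PRO and 60.6 to 77.2 in DIFF. Its normal score rose by 0.64 ± 0.19 in WT (adjusted p = 0.0370) and differed by 0.62 ± 0.23 in p27KO (adjusted p = 0.117). The WT call was lost without any one WT library (adjusted p from 0.0526 to 0.135) and kept without any one p27KO library, and 7 of 9 other settings kept it (up to 0.0861).

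The regions next to Pou3f2 gave changes that did not pass the test. Pou3f2 -6.8 kb had folds of 6.98, 6.67 and 6.64 in WT PRO, 6.36, 5.92 and 6.79 in WT DIFF, 8.79 and 7.67 in p27KO PRO and 7.44 and 8.07 in p27KO DIFF, all p27KO values being above all WT values. Such a separation was seen at 2.59% of all regions with a peak in every library. Pou3f2 +11.2 kb had folds between 6.07 and 8.39 in all libraries, with changes of 0.28 ± 0.16 in WT and 0.05 ± 0.20 in p27KO (adjusted p = 0.275 and 0.905). Pou3f2 -77.8 kb varied most among libraries of one group, with folds of 9.76, 5.37 and 8.22 in WT PRO, 5.999, 6.45 and 7.46 in WT DIFF, 10.3 and 12.7 in p27KO PRO and 7.94 and 7.29 in p27KO DIFF. A pair of weak neighbours of the promoter, at -9.2 and -10.2 kb, had higher folds in every PRO than in every DIFF library, 3.96 to 4.87 against 2.48 to 3.29 at -9.2 kb and 3.28 to 4.22 against 2.22 to 3.01 at -10.2 kb. Their rank changes did not pass the test, with -0.14 ± 0.25 in WT and -0.22 ± 0.31 in p27KO at -9.2 kb (adjusted p = 0.740 and 0.718) and, in the opposite direction to the folds, 0.07 ± 0.23 and 0.01 ± 0.29 at -10.2 kb (0.879 and 0.983). Mean percentiles at -10.2 kb were 20.25 in WT PRO and 5.54 in WT DIFF, and 25.81 and 1.671 in p27KO. Any peak scores above all tested regions without one, so a low percentile in a short list can give a high score. At -10.2 kb the percentile was 0.893 and the score -0.664 in WT DIFF 1, beside 8.78 and -1.16 in WT PRO 1. In an intron of Gm30731 at -3.1 kb a peak was listed in all 5 DIFF libraries and in 1 of 5 PRO libraries, with folds of only 1.62 to 1.97, and the changes of 0.65 ± 0.24 and 0.88 ± 0.29 did not pass the test (adjusted p = 0.0805 and 0.0758). Over the 10 tested regions, 8 changes in WT and 7 in p27KO were above 0.

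At Pou3f3 the region that differed was Pou3f3 +8.2 kb (chr1:42703528-42704663), just past the end of the gene. Folds were 7.29, 7.07 and 7.13 in WT PRO and 7.49 and 8.199 in p27KO PRO. In DIFF there was no peak in WT DIFF 1, and the folds were 4.09 and 4.66 in the other WT libraries and 4.62 and 4.40 in p27KO. Every PRO value was above every DIFF value. The normal score fell by 0.80 ± 0.25 in WT (adjusted p = 0.0462), and the difference in p27KO was -0.62 ± 0.31 (adjusted p = 0.233). The WT call held with WT DIFF 2 left out and was lost with any other library left out (adjusted p from 0.0554 to 0.169), and 5 of 8 other settings kept it (up to 0.0869).

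Other regions of Pou3f3 gave no call. At Pou3f3 -10.8 kb, in Pantr1, folds were 6.45, 6.70 and 8.64 in WT PRO, 4.02, 5.47 and 5.68 in WT DIFF, 7.93 and 7.38 in p27KO PRO and 5.10 and 7.04 in p27KO DIFF. The WT values did not overlap, but the share of all regions separated in this way within WT was not counted. The changes of -0.27 ± 0.22 and -0.16 ± 0.27 did not pass the test (adjusted p = 0.434 and 0.764). At Pou3f3 -66.7 kb, also in Pantr1, folds ranged from 3.47 in WT DIFF 2 to 9.30 in WT PRO 1, and at Pou3f3 +18.7 kb from 4.86 to 6.67. Pou3f3 -59.0 kb had a peak in 4 of 5 PRO libraries (folds 4.08 to 6.47) and in no DIFF library, and Pou3f3 -28.1 kb in 3 of 5 DIFF libraries (3.69 to 5.71) and in no PRO library. Both were in too few libraries to be tested and were picked out after their values were seen.

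**Figure D4:**
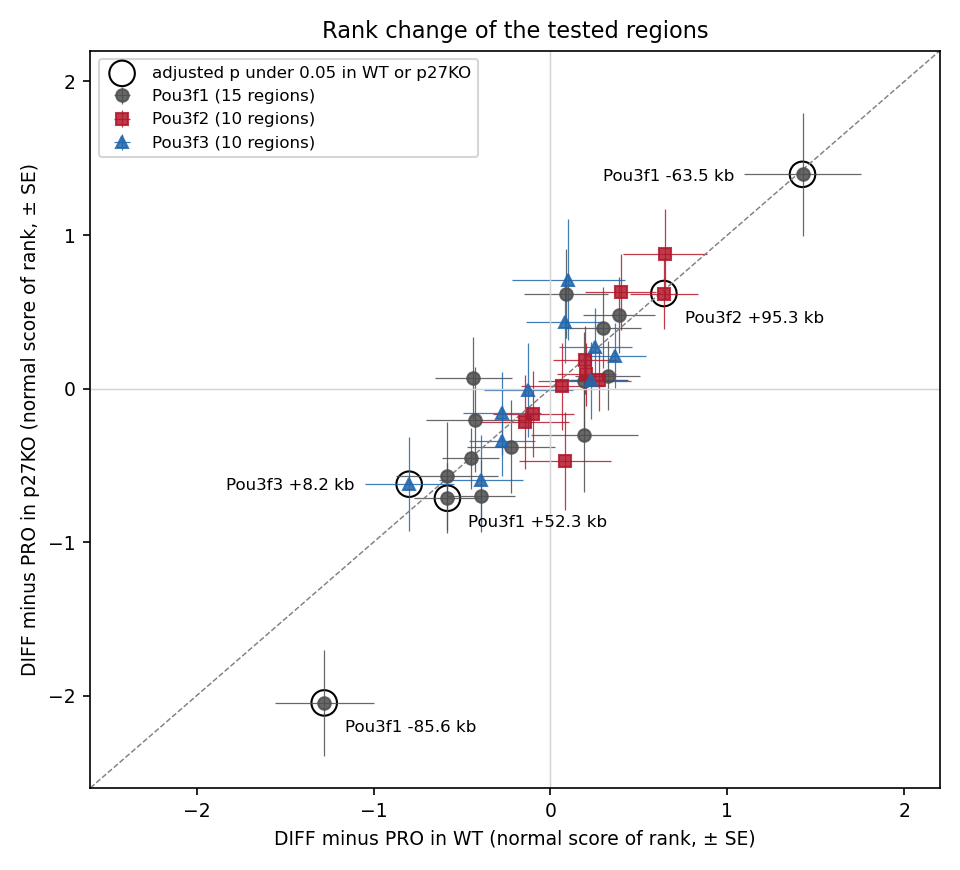
Change of the normal score from PRO to DIFF in WT (horizontal) and in p27KO (vertical) for the 35 tested regions, with standard errors. Circles mark the 5 regions with an adjusted p under 0.05 in at least one genotype, and the dashed line marks equal change. Pou3f1 -85.6 kb at -1.28 and -2.05 and Pou3f1 -63.5 kb at 1.42 and 1.40 stand at opposite ends.

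Among the 25 regions with a peak in every library, folds did not overlap between conditions at 6, all with PRO above DIFF (Pou3f1 -32.4 kb, +52.3 kb and +94.7 kb, Pou3f2 -9.2 kb and -10.2 kb and Pou3f3 -4.0 kb), where 10.4% of all such regions did so. None had DIFF above PRO, against 2.33% of all. The percentile removes differences between lists in the scale of the fold but still depends on list length and on how many weak peaks a list holds. By percentile PRO was above DIFF at 5 (background 9.77%) and DIFF above PRO at 1, Pou3f2 +95.3 kb (background 4.66%). At Pou3f1 -32.4 kb, in an intron of Gm2164, folds were 11.4, 12.4 and 11.8 in WT PRO, 8.04, 7.56 and 9.01 in WT DIFF, 12.2 and 15.0 in p27KO PRO and 7.48 and 9.25 in p27KO DIFF. Even so its rank changes of -0.39 ± 0.19 and -0.70 ± 0.24 did not pass the test (adjusted p = 0.188 and 0.0812).

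Whether loss of p27 altered these loci was tested in each condition and as an interaction. By limma, 0 of the 35 regions differed between p27KO and WT in PRO (all regions, 0.034%), 0 in DIFF (0.0156%) and 0 in the interaction (0.0%). At an unadjusted p under 0.05 the count was also 0 in each, beside 5.53%, 4.91% and 3.91% of all regions. The differences between genotypes ran from -0.51 to 0.59 in PRO and from -0.51 to 0.69 in DIFF. On the fold itself, all p27KO libraries were above all WT libraries at 3 of the 25 regions found in every library, Pou3f2 -0.2 kb, Pou3f2 -6.8 kb and Pou3f3 -0.1 kb, against 2.59% of all such regions, and the reverse was seen at 0 (background 0.0423%). By percentile this held at 1 region, Pou3f2 -6.8 kb (background 0.6%), with 0 in reverse (background 0.0977%). At that region percentiles were 57.3 to 65.6 in WT and 66.3 to 74.0 in p27KO, and the rank test gave no call.

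The number of peaks at each locus was compared after scaling to 10000 listed peaks. Pou3f1 held 16 to 22 peaks in PRO and 11 to 18 in DIFF libraries, Pou3f2 9 to 11 and 10 to 12, and Pou3f3 15 to 19 and 11 to 17. Scaled, Pou3f1 had 2.30 ± 0.238 (SD, n = 3) in WT PRO, 2.08 ± 0.164 (n = 3) in WT DIFF, 2.21 ± 0.261 (n = 2) in p27KO PRO and 1.97 ± 0.491 (n = 2) in p27KO DIFF, a difference of -0.23 between DIFF and PRO (exact permutation test, two-sided, p = 0.267). For Pou3f2 the means were 1.32 ± 0.124, 1.65 ± 0.424, 1.20 ± 0.00354 and 1.49 ± 0.0156 in the same order. The difference of 0.31 gave an exact permutation p of 0.05, where the smallest that the design allows is 0.0167 and 14.6% of all genes reached an exact p under 0.05. With every list cut to the 57534 strongest peaks the difference at Pou3f2 was 0.04 (exact p = 0.950), and without WT DIFF 3 it was 0.41 (exact p = 0.0167).

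For Pou3f3 the scaled means were 1.92 ± 0.0465, 1.87 ± 0.350, 2.05 ± 0.0304 and 2.21 ± 0.426, and the difference between conditions was 0.06 (exact permutation p = 0.733). Between genotypes the differences were -0.10 at Pou3f1, -0.14 at Pou3f2 and 0.24 at Pou3f3 (exact permutation p = 0.600, 0.490 and 0.240), where 4.84% of all genes had an exact p under 0.05. The Pou3f3 difference was 0.33 without WT DIFF 2 (exact p = 0.0167) and 0.39 without p27KO DIFF 2 (exact p = 0.0250). None of the 6 comparisons passed an unadjusted 0.05 with all libraries, the one at Pou3f2 lying on it.

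**Figure D5:**
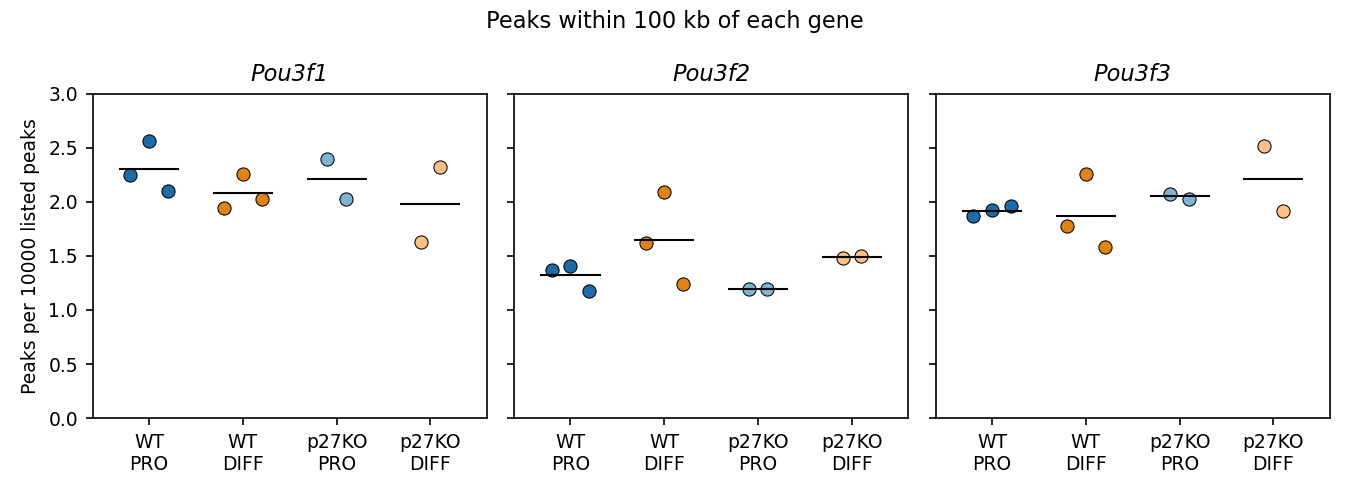
Peaks within the gene body or 100 kb of each gene per 10000 listed peaks, by group. Points are libraries and lines are group means. The conditions overlap at all 3 genes, at Pou3f2 because WT DIFF 3 (1.24) lies below WT PRO 1 (1.37) and WT PRO 2 (1.41).

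In base composition the tested regions were richer in G and C than the rest. The 300-base windows around their summits had a median GC content of 56.7% (42.7 to 78.0%), beside 51.0% over all windows, and a median observed to expected CpG ratio of 0.513, beside 0.25. Octamer-like matches occurred in 1 of the 35 windows (2.86%), that of Pou3f1 -63.5 kb, and in 4.76% of all 70509 windows. Windows with 2 or more such matches, as that one, made up 0.391% of all. A SOX site was found in 7 windows of the 35 (all windows, 18.6%), an AP-1 site in 2 (10.9%), the E-box CAGCTG in 11 (26.7%) and the NFI site TTGGCA in 12 (23.4%). Both strands were searched, overlapping matches were allowed, and a match describes the letters only.

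Of the 12 other POU genes, 6 had a promoter peak in all 10 libraries, among them Pou3f4, the remaining class III gene, at a mean percentile of 79.4, and Pou2f1, which encodes the widely expressed Oct1 protein. The pluripotency gene Pou5f1 and the pituitary gene Pou1f1 had none in any library. Of the 9 promoters that could be tested, 1 differed, that of Pou2f3, which was lower in WT DIFF (-0.97 ± 0.27, adjusted p = 0.0288) and at -0.84 ± 0.33 in p27KO (adjusted p = 0.139). Pou3f4 differed by 0.25 ± 0.21 in WT and 0.18 ± 0.26 in p27KO (adjusted p = 0.457 and 0.717), beside 0.20 to 0.39 and 0.19 to 0.48 at the other class III promoters. Within 100 kb of the 12 genes 113 regions were tested, of which 11 were lower and 4 higher in WT DIFF (all regions, 10.1% and 9.15%) and 4 lower and 4 higher in p27KO DIFF (all regions, 6.48% and 5.83%).

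Genes that share enhancers with class III POU factors or are known targets, Sox1, Sox2, Sox3, Sox11, Nes, Fabp7, Dll1 and Egr2, had a promoter peak in all 10 libraries, and 0 of the 8 promoters were called in either direction in WT or p27KO. Their median promoter change was 0.34 in WT and 0.28 in p27KO. Within 100 kb of these genes 100 regions were tested, of which 12 were lower and 9 higher in WT DIFF and 9 lower and 7 higher in p27KO DIFF. Over all regions 10.1% were lower and 9.15% higher in WT DIFF, and 6.48% and 5.83% in p27KO DIFF.

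By their promoter normal scores over the 10 libraries, the most similar of 15319 genes were Cdk5rap2 (Pearson r = 0.954), Ddx39b (0.952) and Inip (0.948) for Pou3f1, Agpat1 (0.972), Dyrk2 (0.971) and Glrx5 (0.969) for Pou3f2, and Cnnm3 (0.976), Adcy1 (0.964) and Dpy19l3 (0.957) for Pou3f3. These are descriptions over 10 libraries that share groups and list lengths.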

How the data were processed

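Per the methods and the submitters' processing notes, the authors removed adapters (Cutadapt) and low-quality bases (Trimmomatic) from the paired reads, aligned them to GRCm38 (Bowtie2), flagged duplicates (Picard) and ran MACS2 on each library in narrow mode, with no model and a false discovery rate of 0.05. Versions and read shift are not given in the sources used here. The deposited lists hold, per peak, the fold enrichment (a ratio to local background) and its significance as a −log10 p-value and, after correction, a −log10 q-value. Read counts are not used here, so depth is known only through list length.

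Peaks overlapping by 1 bp were merged. Regions with peaks in at least 5 of 10 libraries were compared with limma 3.58.1 (R 4.3.3), with 4 group means and a threshold of 0.05. Its input was normal scores of ranks among these regions within each library. The test was also run on simulated normal scores. These held no tied regions without a peak and no differences in list length, so the run does not check those features. Genes came from GENCODE M21 (release 21), sequences from RefSeq's GRCm38 genome and promoter table, which held 2 of the 3 genes. p-values measure the spread between libraries, which the paper's methods call biological replicates. Named regions were the promoter region (summit within 3 kb), regions called in any comparison and up to 3 further regions per gene with the highest mean percentile. The genes, lists and motifs were chosen with earlier results of these data known. One gene of the marker and partner lists is not reported here. Alternatives were the ranking by p-value, other region filters, equal list lengths, a −log10 q-value of at least 2, a 100 bp overlap, a 50 kb window, only the groups compared, a replicate block and each library left out.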

Additional observations from a re-analysis of the deposited data

How the results depend on the processing

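Alternative settings changed how many regions at the 3 genes passed the test more than their direction. The counts given here, with the replicate block below and with a library left out stand without the share of all regions called under the same setting. They therefore do not show whether these genes differ from other regions. In WT the 5 regions became 8 (5 lower, 3 higher) when ranked by p-value, 3 among regions in all 10 libraries, 2 among regions in at least 2 libraries, 3 with only the groups compared and 2 within 50 kb, where 22 regions were tested. In p27KO the 2 regions became 5 when ranked by p-value, 1 with only the groups compared and 0 within 50 kb. Leaving out one library gave 1 to 3 in each genotype. The 3 comparisons that involve genotype gave 0 at these genes under every alternative run. Pou3f1 +52.3 kb passed the test in p27KO when ranked by p-value (adjusted p = 0.0123), among regions in all 10 libraries (0.0318) and at equal list length (0.0373), while its WT call was kept under 5 of 9 settings other than leaving out a library.

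Same-numbered WT libraries deviated from their group means with correlations of 0.0575, 0.0647 and 0.0328, each the highest for that number but under 0.1, and p27KO libraries with -0.141, so the numbers were not taken as pairs. With the replicate block 2 regions were called in WT and 1 in p27KO. With the p27KO numbers crossed, a pairing added after seeing the data, 4 and 2 were called. For peaks per 10000 listed peaks the block, with signs exchanged within pairs, gave 0.31 at Pou3f2 (exact permutation p = 0.0625, the smallest it can give).

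Changes of regions that were not called reversed at Pou3f3 +18.7 kb in p27KO when ranked by p-value (-0.0591) and among regions in all 10 libraries (-0.0403), as did Pou3f2 +11.2 kb (-0.00743) in the latter. With one library left out the ranges in WT were -0.34 to 0.13 at Pou3f3 -66.7 kb, -0.22 to 0.26 at Pou3f2 -77.8 kb and -0.0201 to 0.53 at Pou3f1 +36.8 kb. In p27KO they were -0.14 to 0.28 at Pou3f1 +57.9 kb, -0.0838 to 0.17 at Pou3f2 +11.2 kb, -0.13 to 0.27 at Pou3f3 +18.7 kb and -0.10 to 0.10 at Pou3f3 -66.7 kb. For peaks per 10000 listed peaks, DIFF minus PRO at Pou3f1 was 0.0435 at equal list length, and at Pou3f2 0.33 (exact p = 0.0333) with a −log10 q-value of at least 2. Leaving out one library gave 0.20 to 0.41 at Pou3f2 and -0.0913 to 0.21 at Pou3f3. For p27KO minus WT the Pou3f1 value was 0.0215 within 50 kb and -0.27 to 0.0783 with one library left out, and the Pou3f3 value 0.0847 to 0.39. The cause of these shifts was not tested. Peak lists carry no reads below their threshold, so an absent peak is not an absence of open chromatin.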

Other observations

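Octamer-like sites were counted over all regions that changed between conditions, as a description with no test. They were found in 6.14% of the 7103 windows of regions lower in WT DIFF and in 5.91% of the 6461 windows of regions higher in WT DIFF, beside 4.76% of all windows. In p27KO the shares were 6.16% of 4579 lower and 6.20% of 4115 higher windows. Windows with 2 or more matches, as in Pou3f1 -63.5 kb, were 0.507% of lower and 0.279% of higher regions in WT and 0.371% and 0.267% in p27KO.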
